A study of Mus musculus with 12 samples.

Results

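The transcripts of 10 synaptotagmin genes (Syt1, Syt2, Syt3, Syt4, Syt5, Syt6, Syt7, Syt9, Syt10 and Syt11) were examined in brains of wild-type (WT) and Nsd2 knockout (KO) mouse embryos. The members were taken by gene symbol, 10 of the 46078 genes in the count tables. Each symbol occurred once, and all 10 passed the filter on low counts in every comparison. Ribosomal RNA-depleted total RNA from bulk brain at E15.5 was sequenced in 12 libraries. There were 3 libraries for each of WT males, KO males, WT females and KO females. All mice were on the C57BL/6 background, and the KO allele lacks the entire Nsd2 coding sequence in every cell. Nsd2 (listed as Whsc1) encodes a histone methyltransferase that places mono- and dimethylation on lysine 36 of histone H3. Whether each library came from a single embryo, and which kit version and sequencer it had, are not given in the sources used here. The p-values therefore measure only the spread between these libraries.

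Synaptotagmins are vesicle and membrane proteins with a transmembrane segment and a pair of cytoplasmic C2 domains. In many members the C2 domains bind calcium and phospholipids, and calcium entry then couples the vesicle to the SNARE proteins that fuse membranes. Syt1 and Syt2 are known as fast calcium sensors of neurotransmitter release, Syt7 as a slower sensor of high calcium affinity, and Syt4 and Syt11 as members whose membrane-proximal C2 domain does not bind calcium in the usual way. The names Syt5 and Syt9 have been exchanged between publications, so both are used here for the genes as the files list them, and no role described under either name is assigned to them.

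Syt9 spans chr7:107370728-107548656 on the plus strand of GRCm38, 177.9 kb, and no other annotated gene overlaps it. Its promoter window, from 250 bases before to 50 after the RefSeq start (chr7:107370540-107370839, plus strand, GRCm38.p6), is printed below beside that of Syt1 (chr10:109010926-109011225, minus strand), because Syt9 carries the KO difference described below and Syt1, the best-known member, serves for comparison. Capitals mark CG dinucleotides, searched as CG, which reads the same on both strands.
Syt9: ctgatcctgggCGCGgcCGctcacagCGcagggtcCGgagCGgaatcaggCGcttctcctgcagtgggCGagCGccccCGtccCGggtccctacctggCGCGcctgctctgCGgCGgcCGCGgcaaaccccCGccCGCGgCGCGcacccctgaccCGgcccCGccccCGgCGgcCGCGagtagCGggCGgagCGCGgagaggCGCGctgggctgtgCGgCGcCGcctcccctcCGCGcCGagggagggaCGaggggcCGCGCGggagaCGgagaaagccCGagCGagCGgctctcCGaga
Syt1: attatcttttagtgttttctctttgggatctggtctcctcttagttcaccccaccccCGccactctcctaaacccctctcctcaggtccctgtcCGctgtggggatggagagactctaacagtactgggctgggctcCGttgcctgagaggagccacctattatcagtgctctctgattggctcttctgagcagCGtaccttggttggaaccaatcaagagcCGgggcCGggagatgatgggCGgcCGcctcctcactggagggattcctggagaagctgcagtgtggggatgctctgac
The Syt9 window held 49 CG dinucleotides and was 79.3% G or C, and 1.02% of 32851 mouse promoter windows of this length held as many. The Syt1 window held 8, a number reached by 48.6% of windows. RefSeq windows were matched for 7 of the 10 members, 11 windows in all, and the others held between 6 and 35 CG dinucleotides against a median of 7 over all windows. No chromatin or methylation measurement of these windows was used here.

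Library totals ranged from 40398665 to 59304196 counts. They did not separate the genotypes in males (exact permutation test, two-sided, p = 0.4) or females (p = 0.6), where 3 against 3 libraries cannot go below p = 0.1. Nsd2 was lower in KO by 8.29 on the log2 scale in males and 7.68 in females, so the genotype labels held. The summed level of 10 neuron markers was 6857 to 7174 CPM (counts scaled to a common library size) in WT and 6894 to 7158 CPM in KO males. In females it was 6772 to 7064 CPM in WT and 6453 to 6546 CPM in KO, without overlap (exact p = 0.1). In bulk brain, fewer cells of a type and less RNA per cell cannot be told apart. Of the pituitary markers, Pou1f1 and Gh were at 0 in every library. Summed levels of 13 caudal Hox genes, which mark hindbrain and spinal cord, ranged from 0.480 to 242.2 CPM and differed between libraries of the same group. Genes called lower in KO (edgeR quasi-likelihood test, Benjamini-Hochberg adjusted p under 0.05) made up 0.337% of those tested in males, 0.00535% of those in females and 1.52% in the fit of all 12 libraries. Genes called higher made up 0.123%, 0.0107% and 0.374%, respectively.

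Syt9 was the synaptotagmin that fell in KO brains. In WT males it was measured at 21.1, 25.8 and 20.4 CPM, and in KO males at 5.77, 9.02 and 6.84 CPM. In WT females it was at 16.4, 17.4 and 18.4 CPM, and in KO females at 5.48, 7.20 and 4.42 CPM. The lowest WT library stood well above the highest KO library within each sex and across all 12 libraries. These levels rest on 704 to 1542 counts per WT library and 237 to 506 counts per KO library. In males Syt9 was lower in KO by a factor of 3.11 (log2 fold change -1.64, 95% interval -2.04 to -1.24, edgeR adjusted p = 0.0109). In females it was lower by a factor of 3.05 (log2 fold change -1.61, interval -2.02 to -1.20), with an unadjusted p of 1.82e-05 and an edgeR adjusted p of 0.0681, above the threshold. With both sexes in 1 fit and sex as a covariate, the log2 fold change was -1.63 (SE 0.129, edgeR adjusted p = 2.48e-05), which placed Syt9 at rank 7 by p of 19767 genes tested and Nsd2. The difference of the KO effect between the sexes was 0.03 (log2, interval -0.54 to 0.60, edgeR adjusted p = 0.995).

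**Figure D1:**
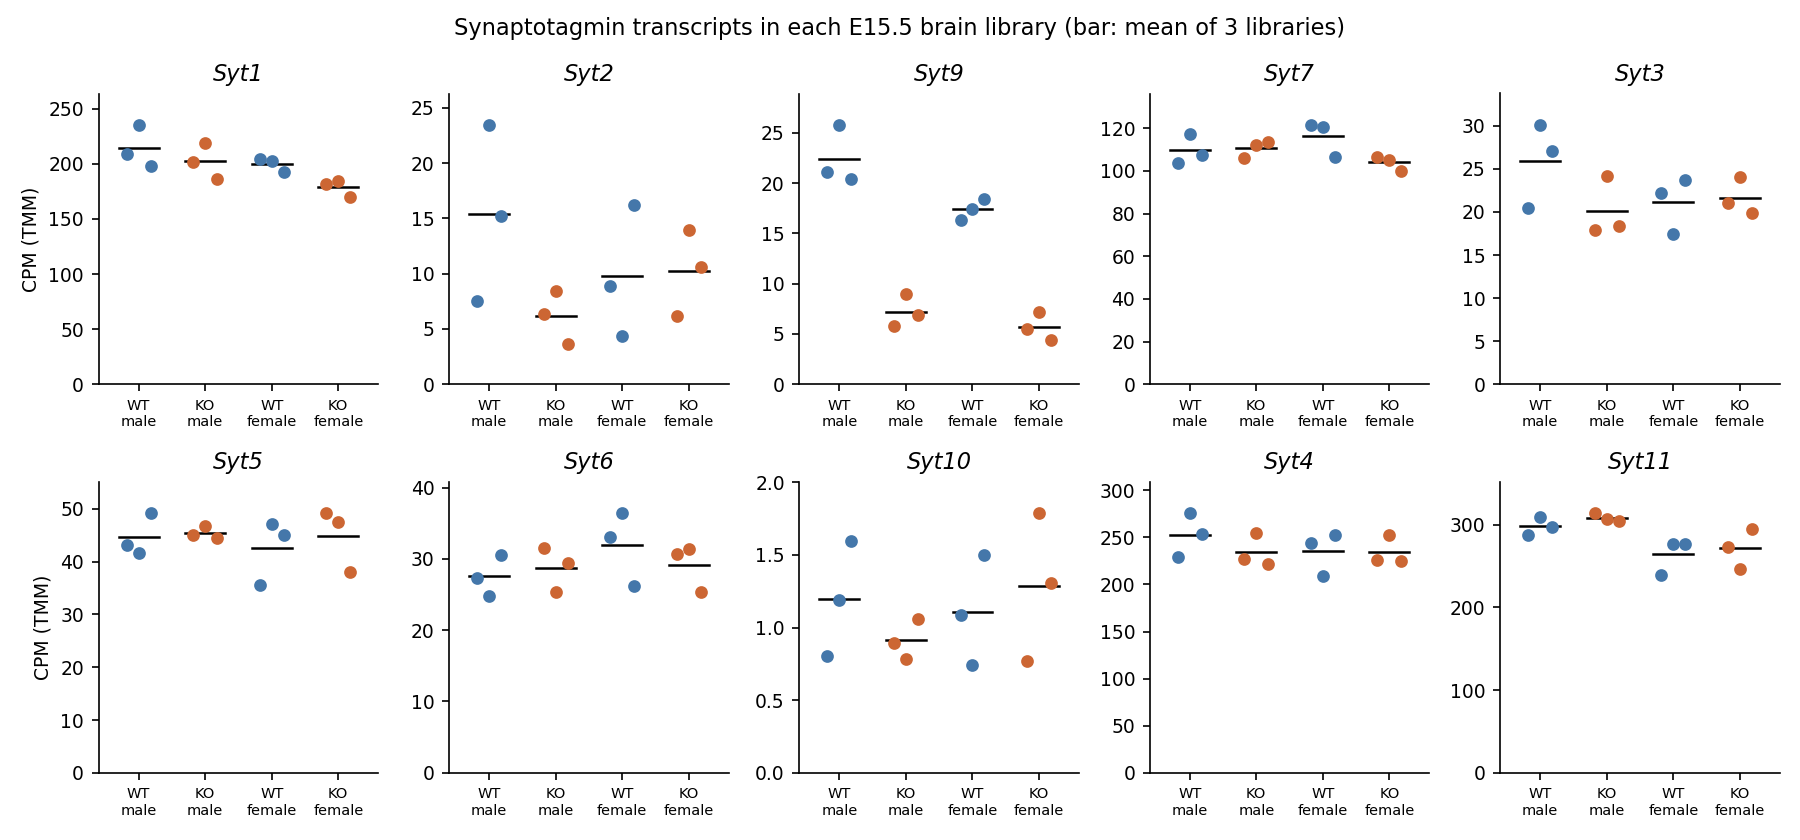
Level of each synaptotagmin in CPM (vertical axes from 0) in each library, with 3 points for each of WT male, KO male, WT female and KO female, and a bar at the mean. Only the Syt9 panel shows every KO library below every WT library in all 12, with WT from 16.4 to 25.8 CPM and KO from 4.42 to 9.02 CPM.

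The call for Syt9 in males was lost without KO male replicate 3 (edgeR adjusted p = 0.0902) and when the Hox level of each library was a covariate (log2 fold change -1.43, adjusted p = 0.0821). In females Syt9 passed the threshold with DESeq2 (adjusted p = 1.99e-13) and when the spread was estimated over all 12 libraries (edgeR adjusted p = 0.00464). Over both sexes the call held without each library in turn and under each of the 9 other settings, including the 6 libraries with less than 1 CPM of Hoxa5 (log2 fold change -1.68, edgeR adjusted p = 0.00426).

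Relative to the summed neuron markers of the same library, Syt9 in KO was lower by 1.64 on the log2 scale in males and by 1.55 in females, and KO and WT libraries did not overlap. In males, summed oligodendrocyte-lineage markers (5 genes, none at 0) were at 110 to 168.8 CPM in WT and 85.7 to 100.2 CPM in KO, and summed erythroid markers (7 genes, none at 0) at 2553 to 3211 and 1829 to 2517 CPM (exact p = 0.1 for each). In females both sums overlapped between genotypes, and their part in the Syt9 result was not tested. Relative to Snap25, a SNARE protein of the presynaptic membrane, the differences were -1.29 in males and -1.72 in females. As a share of the summed length-scaled level of the 10 members, Syt9 was 2.78% ± 0.244 (SD, n = 3) in WT males and 0.939% ± 0.182 in KO males. In females the share was 2.33% ± 0.0739 in WT and 0.784% ± 0.176 in KO.

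The fast sensors Syt1 and Syt2 did not pass the test. Syt1, the major calcium sensor of forebrain synapses, was at 198.3 to 235.5 CPM in WT males and 186.6 to 218.8 CPM in KO males, ranges that overlap. In females it was at 192.5 to 203.9 CPM in WT and 169.8 to 184.1 CPM in KO, without overlap. The neuron marker sum also differed without overlap in females, and relative to it the KO and WT libraries of Syt1 overlapped (difference -0.08 on the log2 scale). Relative to Snap25, Syt1 in females differed by -0.25 on the log2 scale, also with overlap. What part neuron content had in the Syt1 values was not tested. Its log2 fold change over both sexes was -0.12 (95% interval -0.25 to 0.00, edgeR adjusted p = 0.376).

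Syt2, the fast sensor that predominates in hindbrain and spinal cord, was measured at 7.50, 23.5 and 15.2 CPM in WT males and at 6.40, 8.43 and 3.61 CPM in KO males. In WT females it was at 8.84, 4.32 and 16.2 CPM, and in KO females at 6.15, 13.95 and 10.6 CPM. Libraries of the same group differed widely, and the groups overlapped in both sexes. Its log2 fold change was -1.33 in males (SE 0.505, edgeR adjusted p = 0.399), 0.07 in females (SE 0.487, adjusted p = 0.98) and, in the fit of all 12 libraries, -0.63 (SE 0.443, adjusted p = 0.597).

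Syt2 moved with the Hox level of the libraries. Hoxa5 was above 1 CPM in 6 libraries, which were WT male replicates 2 and 3, KO male replicate 2, WT female replicate 3 and KO female replicates 2 and 3. Syt2 was at 8.43 to 23.5 CPM in these and at 3.61 to 8.84 CPM in the other 6. With the Hox level as a covariate over both sexes, the SE of Syt2 dropped to 0.185 and its log2 fold change was -0.49 (edgeR adjusted p = 0.228). In that fit Syt9 was at -1.62 (edgeR adjusted p = 3.21e-05). What part the dissected tissue had in the Syt2 values was not tested.

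**Figure D2:**
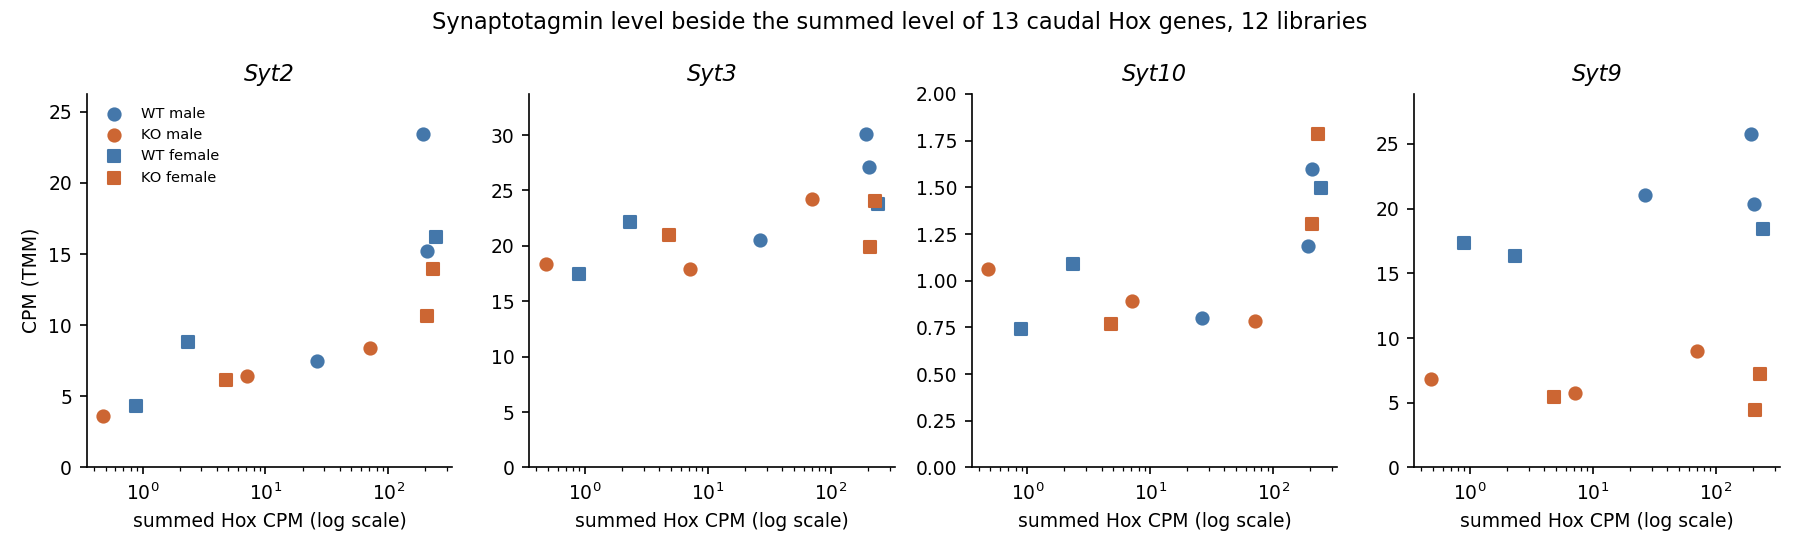
CPM of Syt2, Syt3, Syt10 and Syt9 (vertical axes from 0) against the summed CPM of 13 Hox genes (horizontal log axis), 1 point per library with genotype by colour and sex by shape. Syt2 is at 8.43 CPM or more in the 6 libraries on the right, from 70.3 Hox CPM up. In the other libraries Syt2 is at up to 8.84 CPM (WT female replicate 1), so the ranges overlap. Syt9 splits by genotype across the whole range of 0.480 to 242.2 Hox CPM.

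Syt7, which is linked to asynchronous release and facilitation, was at 103.8 to 117.3 CPM in WT males and 106.1 to 113.6 CPM in KO males. In WT females it was at 106.7 to 121.7 CPM and in KO females at 100.1 to 106.7 CPM, with the highest KO library just below the lowest WT library. Relative to the neuron marker sum, Syt7 in females differed by -0.08 on the log2 scale, and KO and WT libraries overlapped. Relative to Snap25, Syt7 in females differed by -0.25, again with overlap. Its log2 fold change was 0.01 in males (edgeR adjusted p = 0.962), -0.16 in females (adjusted p = 0.733) and, in the fit of all 12 libraries, -0.08 (interval -0.20 to 0.04, adjusted p = 0.609). Part of the Syt7 exons, 384 bases, overlaps Gm26859 on the opposite strand, and the strand setting of the counting is not given, so reads from the pair may be mixed.

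Of Syt3, Syt5, Syt6 and Syt10, Syt10 is known for the release of insulin-like growth factor in olfactory neurons. Syt3 was at 17.5 to 30.1 CPM over all 12 libraries, with log2 fold changes of -0.36 in males (edgeR adjusted p = 0.445) and 0.04 in females (adjusted p = 0.96). Syt5 was at 35.6 to 49.2 CPM and Syt6 at 24.8 to 36.4 CPM. Over both sexes Syt5 had a log2 fold change of 0.05 (interval -0.13 to 0.22, edgeR adjusted p = 0.867) and Syt6 of -0.04 (interval -0.24 to 0.17, adjusted p = 0.917). Syt6 shares 505 exon bases with the opposite-strand gene Atg4a-ps.

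Syt10 was the least abundant member, at 0.741 to 1.79 CPM, or 30 to 89 counts per library. The interval of its log2 fold change over both sexes, -0.64 to 0.45 (SE 0.253), was wider than that of Syt1, though narrower than that of Syt2 with its 175 to 1403 counts per library. In the plot against the Hox level, Syt10 was at 1.19 CPM or more in the 5 libraries with the highest Hox sums and at 1.09 CPM or less in the other 7. This is not the split used for Syt2. That split also puts KO male replicate 2 (70.3 Hox CPM) on the high side, where Syt10 was at 0.784 CPM. Under it the Syt10 ranges overlapped.

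Syt4, found on vesicles that carry brain-derived neurotrophic factor, was at 209.3 to 275.7 CPM, and Syt11, a member linked to endocytosis, at 239.4 to 314 CPM. Neither differed between genotypes by the test, with log2 fold changes over both sexes of -0.06 for Syt4 (interval -0.20 to 0.08, edgeR adjusted p = 0.764) and 0.04 for Syt11 (interval -0.08 to 0.17, adjusted p = 0.81). Syt4 shares 566 exon bases with Gm26658 on the opposite strand.

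**Figure D3:**
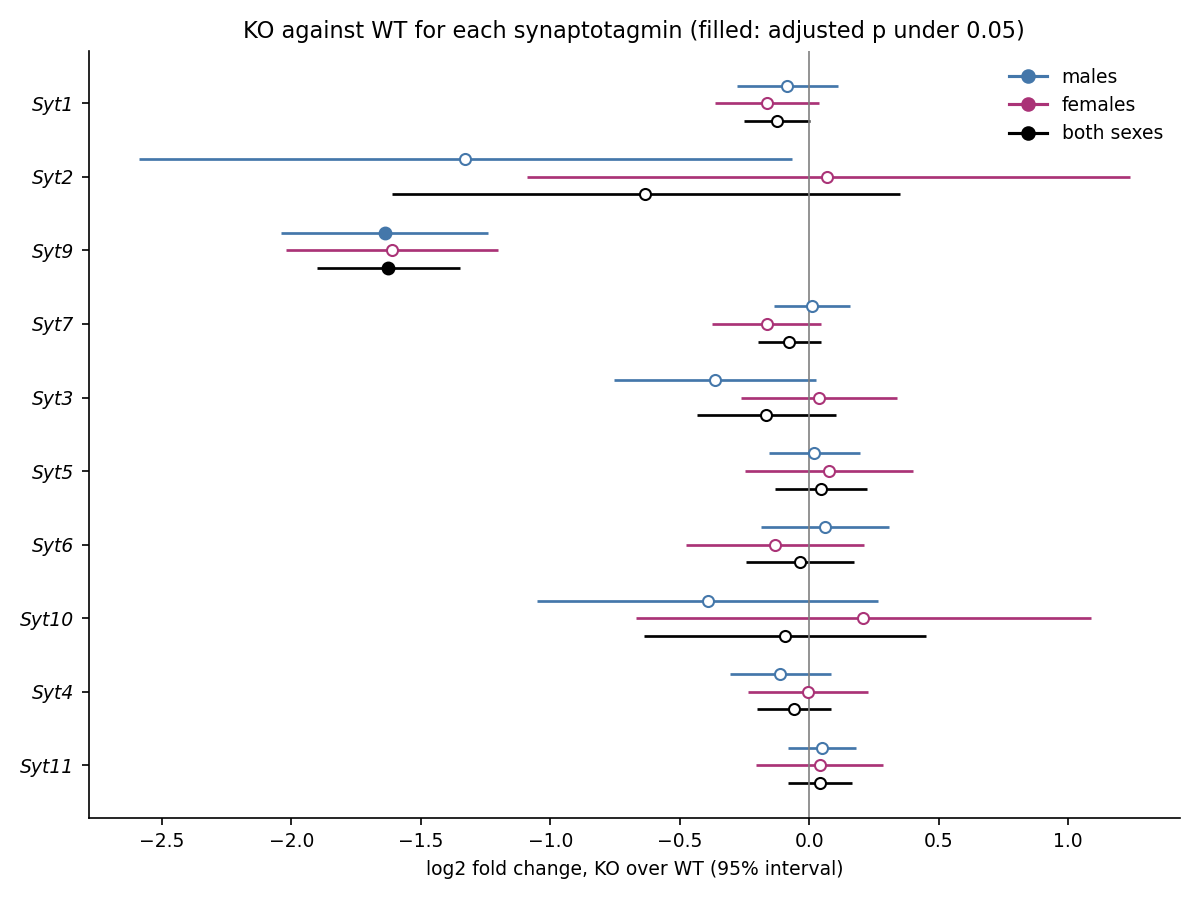
Log2 fold change of KO over WT with its 95% interval for each synaptotagmin in males, females and both sexes, with filled points for an edgeR adjusted p under 0.05. The Syt9 intervals lie below -1.20 in all 3 fits, and the Syt2 interval in males, -2.59 to -0.06, is the widest in that fit.

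In counts, 1 of the 10 synaptotagmins was lower in KO males beside the 0.337% of all genes, and 1 of 10 over both sexes beside 1.52%. In females the edgeR count was 0, with 1 of 10 lower at an unadjusted p under 0.05 and 1 lower by DESeq2. Of the 18709 genes tested in females, 1398 had an unadjusted p under 0.05 in either direction. DESeq2 called 129 of them lower and 50 higher. In males 2 of 10 were lower at an unadjusted p under 0.05, where 2230 of 18671 genes were under it in either direction. None of the 10 was called higher in any of these fits, either by edgeR or by DESeq2, and none was above 0 with an unadjusted p under 0.05. All KO libraries lay below all WT libraries for 1 member in males, where 8.44% of genes did so, and for 3 in females (Syt1, Syt7 and Syt9), where 6.24% did. Across all 12 libraries this held for Syt9 alone among the members, and for 1.24% of genes tested. The median log2 fold change over both sexes was -0.09 for the 10 members and 0.00 for all genes tested.

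For the difference of the KO effect between sexes, 0% of genes were called by edgeR, 879 had an unadjusted p under 0.05, and DESeq2 called 5. None of the 10 synaptotagmins had an unadjusted p under 0.05 in it. The value farthest from 0 among the members was that of Syt2, 1.40 (log2, interval -0.34 to 3.14, edgeR adjusted p = 0.91).

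Levels of different members were compared per kb of exon. In WT males the order was Syt4 at 65.0 ± 5.98, Syt11 at 57.2 ± 2.07, Syt1 at 25.7 ± 2.31, Syt5 at 18.8 ± 1.65 and Syt7 at 14.6 ± 0.928 CPM per kb (SD, n = 3). It went on with Syt3 at 8.31 ± 1.58, Syt9 at 5.63 ± 0.743, Syt6 at 4.73 ± 0.487, Syt2 at 2.02 ± 1.05 and Syt10 at 0.648 ± 0.216 CPM per kb. The libraries of Syt4 and Syt11 overlapped, as did those of Syt9 and Syt6, and the other neighbours in this order did not. Syt9 ranked 7 in WT males and 8 in the other 3 groups. In KO it was at 1.81 ± 0.416 CPM per kb in males and 1.43 ± 0.353 in females, clear of Syt6 above it in both, and overlapping Syt2 in females. Scaling by the longest transcript placed Syt6 above Syt9 in WT males as well.

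**Figure D4:**
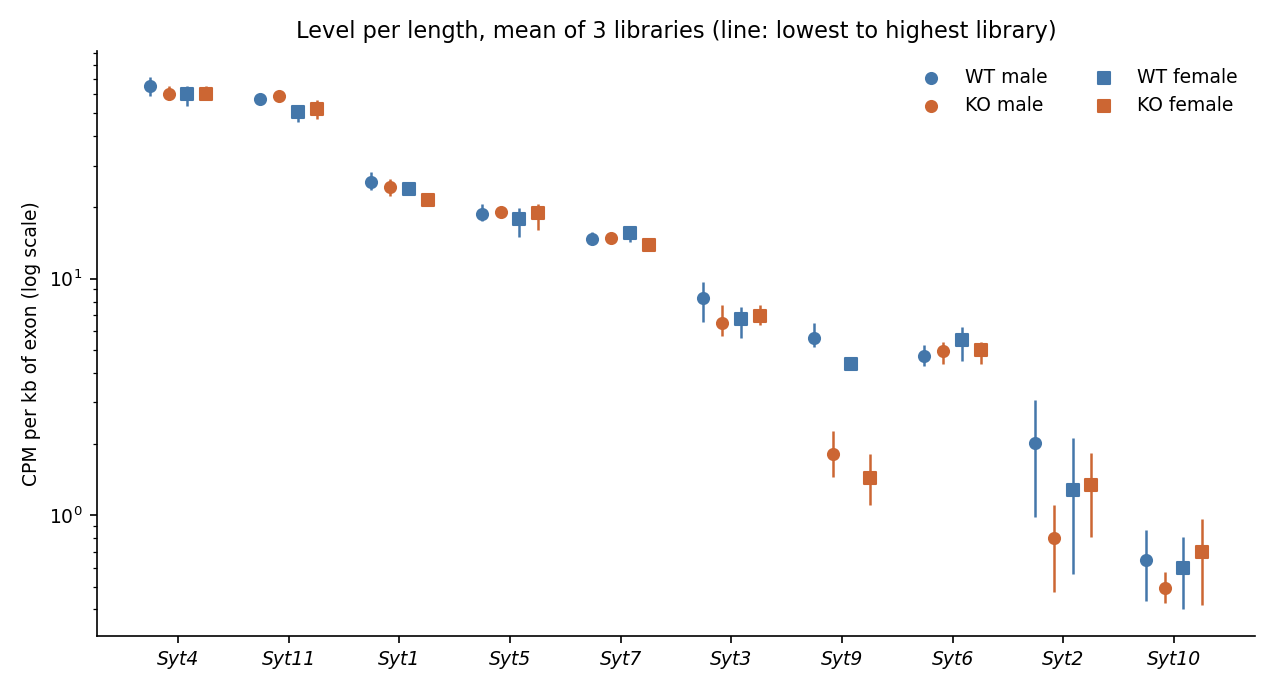
Mean level in CPM per kb of exon (log axis) of each synaptotagmin in the 4 groups, with a line from the lowest to the highest of 3 libraries. The members span from 65.0 for Syt4 to 0.648 CPM per kb for Syt10 in WT males, and Syt9 is the member whose KO lines, up to 2.27 CPM per kb, lie under its WT lines, from 4.12 CPM per kb, in both sexes.

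Sex and the deposited count table coincide, so a difference between females and males cannot be told apart from one between the tables. With genotype as a covariate, 10.9% of genes were lower and 12.9% higher in females. Of the 10 synaptotagmins, Syt11 was lower in females (log2 fold change -0.17, SE 0.0575, edgeR adjusted p = 0.0483) and none was higher. The Syt11 call was kept in 3 of 12 fits that leave out 1 library. Syt9 was at -0.34 (edgeR adjusted p = 0.0644) and Syt1 at -0.13 (adjusted p = 0.129).

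Within 500 kb of Syt9, 3 other genes were tested and none was called in either sex or over both. All 3 lay downstream and were low, at WT means of 1.89 CPM for Olfml1, 2.93 for Ppfibp2 and 0.614 for Gm10156. Their SE over both sexes was 0.306, 0.164 and 0.208, so small differences near Syt9 could not be seen with them. Over both sexes, Olfml1, 18.8 kb downstream, had a log2 fold change of -0.11 (edgeR adjusted p = 0.919). Ppfibp2, 46.6 kb downstream, was at -0.24 (adjusted p = 0.575), and Gm10156, 314 kb away, at 0.42 (adjusted p = 0.407).

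The genes whose profile over the 12 libraries was closest to that of Syt9, by the root mean square difference of log2 CPM centred within each sex, were Gm18406 (0.15), Tchh (0.17) and Lrfn5 (0.17), against a median of 0.88 over all genes. Lrfn5, which encodes a synaptic adhesion protein, went from a mean of 69.4 CPM in WT to 20.1 CPM in KO. Gm18406 was at 0.370 CPM in WT and Tchh at 1.51 CPM, far below Syt9. Since Syt9 fell in KO, genes that fell by a like amount are close by this measure. With profiles centred over all 12 libraries, 1 of the closest 3 and 7 of the closest 10 were the same genes.

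Further synaptotagmins were read from a separate list of 7, of which 6 were tested and none was called in KO against WT by edgeR. Syt8 was listed at 0 in 11 libraries and had 3 counts in the other. Syt13, whose C2 domains are not known to bind calcium, was at 70.5 to 82.3 CPM in WT males and at 93.2 to 120.5 CPM in KO males, without overlap. In males all KO libraries lay above all WT libraries for 8.87% of genes tested. The non-overlap of Syt13 is thus common among genes. The log2 fold change of Syt13 was 0.44 in males (unadjusted p = 0.00277, edgeR adjusted p = 0.166) and 0.11 in females (adjusted p = 0.922), and it passed the threshold in males in 4 of 10 other settings, DESeq2 among them. Over both sexes Syt13 was at 0.27 (edgeR adjusted p = 0.371), Syt17 at -0.44 (adjusted p = 0.354), Syt15 at -0.34 (adjusted p = 0.515) and Syt12 at -0.32 (adjusted p = 0.604). Syt14 and Syt16, at 37.9 to 55.2 and 40.5 to 62.7 CPM, had log2 fold changes of -0.07 (adjusted p = 0.791) and -0.10 (adjusted p = 0.517). Syt17 was the 1 of the 6 with a lower value and an unadjusted p under 0.05, and DESeq2 called none over both sexes. Of the double C2 relatives (Doc2, rabphilin, the synaptotagmin-like and the extended synaptotagmin families), 0 of 13 were called, with 2 lower at an unadjusted p under 0.05 and 0 by DESeq2. For these counts over both sexes, 2708 of all 19767 genes tested had an unadjusted p under 0.05 in either direction, and DESeq2 called 587 lower. The double C2 count was thus no result about that list. The most abundant double C2 relatives were Rph3a (-0.32, edgeR adjusted p = 0.175) and Esyt2 (0.04, adjusted p = 0.804).

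The proteins that work with synaptotagmins at the vesicle were read from lists drawn up by function. Over both sexes, 2 of 17 genes of the fusion machinery were lower in KO, beside 1.52% of all genes tested. They were the active-zone scaffolds Rims1 (log2 fold change -0.53, edgeR adjusted p = 0.00214) and Rims2 (-0.31, adjusted p = 0.0396). Rims1 was at 52.1 to 68.4 CPM in the WT and 36.5 to 46.0 CPM in the KO libraries, without overlap. Of the SNARE genes, Snap25 was at -0.14 (adjusted p = 0.69) and Vamp2 at -0.17 (adjusted p = 0.123). The median of this list was -0.17.

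Of the dense core vesicle proteins 3 of 15 were lower over both sexes, beside the same 1.52% of all genes. They were Bdnf, a neurotrophin (-0.63, edgeR adjusted p = 0.018), Cadps, a priming factor (-0.30, adjusted p = 0.0224), and Pcsk1, a prohormone convertase (-0.83, adjusted p = 0.0495). Of the endocytosis proteins 1 of 15 was lower, again beside 1.52%, the clathrin adaptor Snap91 (-0.32, adjusted p = 0.0188). Of the synaptic vesicle proteins 0 of 19 were called by edgeR, with 5 lower and 1 higher at an unadjusted p under 0.05, and 2 lower by DESeq2. Among all 19767 genes tested, 2708 had an unadjusted p under 0.05 in either direction, and DESeq2 called 587 lower and 218 higher. The most abundant of the synaptic vesicle proteins were Rab3c, a vesicle GTPase (-0.04, adjusted p = 0.907), and Sv2a, a vesicle glycoprotein that binds Syt1 (-0.21, adjusted p = 0.214). No gene of these lists was called in males or females alone by the edgeR quasi-likelihood test. Other settings did call some in a single sex, such as Rims1 in 4 of 10 for males and 3 of 10 for females, and Cadps in 4 of 10 for males. The Rims1 call held without each library in turn, and the Rims2, Bdnf, Cadps, Pcsk1 and Snap91 calls were kept in 3, 10, 5, 2 and 7 of 12 such fits. In the 6 libraries with less than 1 CPM of Hoxa5, where 31 genes in all were called lower, none of the 6 calls was kept, with log2 fold changes of -0.45 for Rims1, -0.27 for Rims2, -0.69 for Bdnf, -0.29 for Cadps, -0.85 for Pcsk1 and -0.33 for Snap91. With the neuron marker level as a covariate, Rims1 kept its call (-0.48, edgeR adjusted p = 0.0129) and the other 5 did not. The Pcsk1 call was also lost without the filter on low counts.

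**Figure D5:**
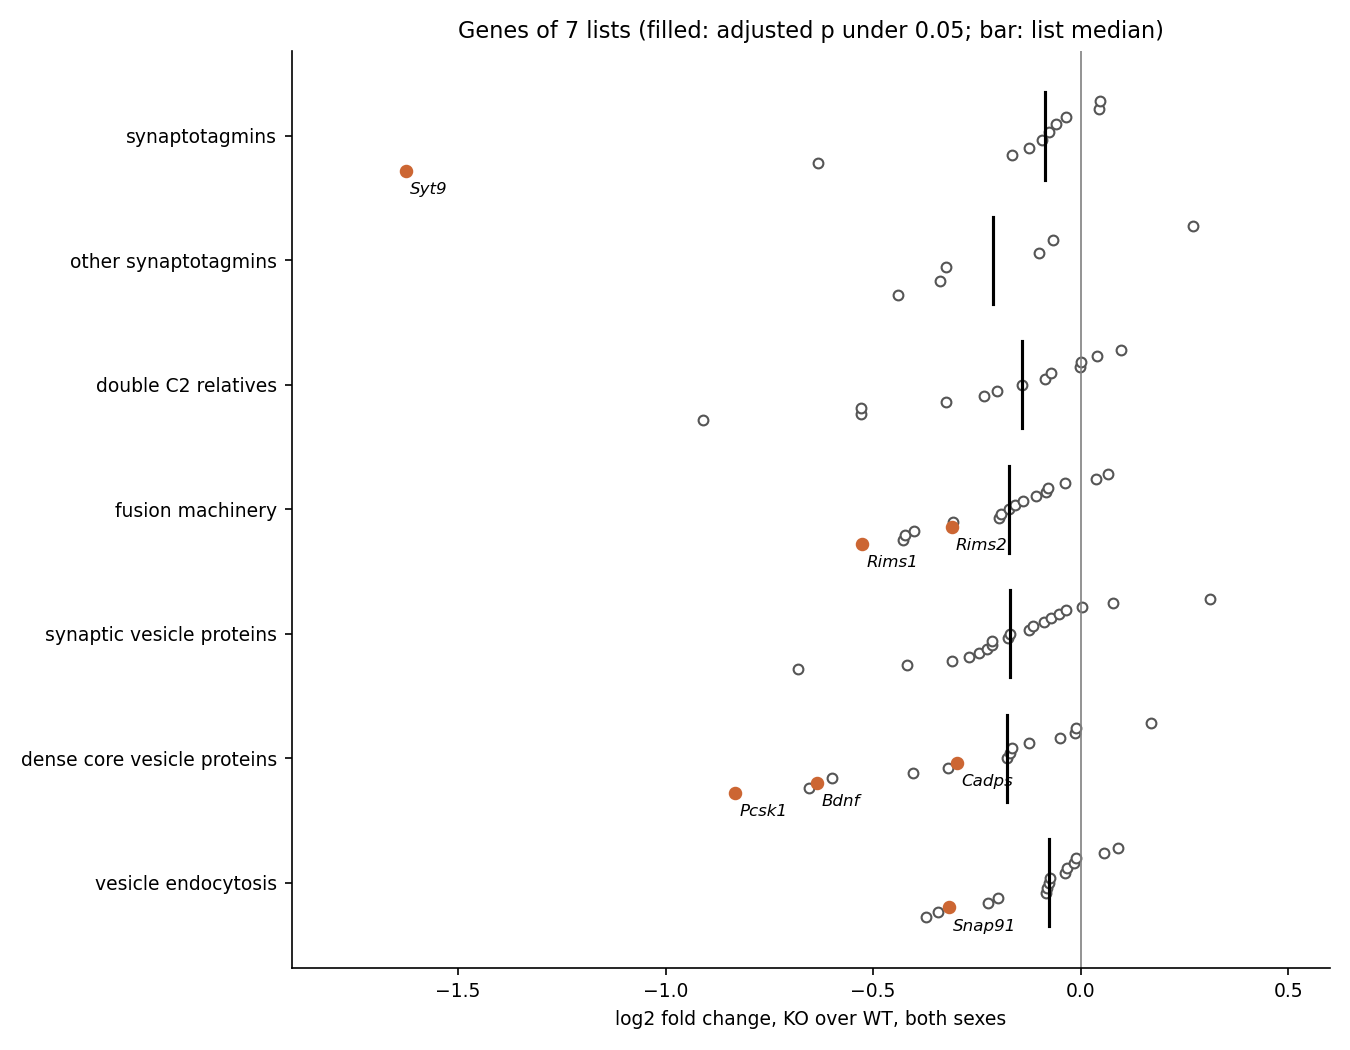
Log2 fold change of KO over WT over both sexes (horizontal axis) for each tested gene of 7 lists, with filled, named points for an edgeR adjusted p under 0.05 and a bar at each list's median. Syt9 at -1.63 is the lowest point of all lists, and the list medians lie between -0.21 and -0.08.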

How the data were processed

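Per the labels and the study's methods, total RNA of E15.5 brain was depleted of ribosomal RNA and made into directional libraries. The study's methods name different sequencers with different read lengths, and the longer reads were trimmed to the shorter length. Which library was run on which sequencer is not given. Per the submitters' processing notes, reads were processed with cutadapt 2.6, HISAT2 2.1.0 (build mm10) and StringTie 2.0.6, with the Ensembl release 81 annotation. The authors deposited raw counts per gene, 1 table per sex, and all 12 columns were mapped to libraries by their labels. The strand setting is not given in the sources used here.

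From these counts, edgeR 4.0.16 (R 4.3.3) was run with TMM scaling, filterByExpr (minimum count 10, total 15), a robust quasi-likelihood fit and Benjamini-Hochberg adjustment over all genes tested, threshold 0.05. Males and females were fitted apart, and a fit over 12 libraries had sex as a covariate or an interaction. Levels are CPM with TMM over 12 libraries, and lengths and positions come from GENCODE M21, which matched 45229 gene IDs. The scripts were tested on simulated data. The members and lists were chosen with earlier results of these data known. Named genes are all members, the 3 profiles closest to a called member, its nearest neighbours, the further synaptotagmins and, of each other list, up to 4 genes called over both sexes or otherwise the 2 most abundant. Snap25, Vamp2 and the remaining neighbours were named after their values were seen. DESeq2 1.42.0, other scalings, filters and covariates and leaving out libraries were alternatives. Intervals use the t quantile of the fit. A sign change of a value called in neither fit was not counted as a reversal. Total counts of 40398665 to 59304196 per library set the counting error.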

Additional observations from a re-analysis of the deposited data

How the results depend on the processing

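The fall of Syt9 over both sexes kept its direction and its call in all 12 fits that left out 1 library (log2 fold change -1.71 to -1.56) and in 9 of 9 other settings (-1.68 to -1.50). The count of synaptotagmins called lower in males, 1, was 0 with the Hox covariate and 0 to 1 without 1 library. In females the count, 0, was 1 with DESeq2, the likelihood ratio test, the exact test, no filter or the spread of 12 libraries, and 0 to 1 without 1 library. In females against males the count, 1, was 2 with DESeq2, 0 with the likelihood ratio test, 0 with a filter above 1 CPM in 3 libraries, and 0 to 1 without 1 library. These alternatives for females against males were chosen after seeing the data. The cause of these moves was not tested. No call turned its sign under any setting.

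Same-numbered replicates showed little common deviation (r from -0.0519 to 0.195, and 5 of 12 libraries correlated best with their own number). Such low values cannot show that the numbers carry no pairing, and the main fits treated the libraries as unpaired. With the replicate number as a block, the edgeR adjusted p of Syt9 was 0.00146 for males, 0.156 for females and 0.000178 for all 12 libraries, which changed no count of synaptotagmins called. The block did change the calls over all genes. In males 219 were lower and 70 higher, against 63 and 23 without it. In females 0 were called in either direction, against 1 lower and 2 higher. Of the other genes called over both sexes, Bdnf did not pass with the block. Syt10 had the fewest counts of the members, 30 to 89 per library, and how far depth limits its interval was not tested.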
